A study of Mus musculus with 39 samples.

Results

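Dusp1, Dusp4, Dusp5, Dusp6, Dusp7 and Dusp8 encode dual-specificity phosphatases that inactivate mitogen-activated protein (MAP) kinases. Each of the 6 genes had 1 row in the deposited expression table, which holds 47561 genes, and all 6 were among the 14701 genes that passed the filter on low values. The genes were taken by name, and the family was chosen from an earlier analysis of these same libraries in which Dusp1 and Dusp4 were lower after soman than after saline. Their differences from saline are therefore given as a description, with no p-value. How many of them passed the threshold of the fit over all genes is given in the same way, and no count of members is to be read against the share of all genes. How many of all genes have libraries that do not overlap between groups was not counted, so such statements describe the members only.

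MAP kinases of the ERK, JNK and p38 groups are active only while a threonine and a tyrosine of their activation loop both carry a phosphate. Dual-specificity phosphatases remove both phosphates and so end the signal. Several of them are themselves transcribed in response to ERK activity, which closes a negative feedback loop, and in neurons their transcripts are known to follow synaptic activity. Dusp1, Dusp4 and Dusp5 proteins sit in the nucleus, Dusp6 and Dusp7 are cytoplasmic and prefer ERK, and Dusp8 prefers JNK and p38.

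Soman, a nerve agent of the organophosphate class, inhibits acetylcholinesterase. Mouse brain was collected 1, 3, 7 or 14 days after subcutaneous soman at 1/10, at 1/5 or at 1/2 LD50 (LD50 is the 50% lethal dose), which gives 12 soman groups, and from a single saline group, with 3 biological replicates in each of the 13 groups and 39 poly(A) RNA libraries in all. The strain, age and sex of the mice, the brain region, the number of injections, the number of mice in a library and the day on which the saline mice were sampled are not given in the sources used here. Every comparison with saline uses the same 3 saline libraries, so these comparisons share their errors. Expression is in FPKM (fragments mapped to a gene, scaled to transcript length and to library size). Values are means ± SD over 3 libraries unless stated, and differences are in log2(FPKM + 1) with the standard error (SE) of the linear model. In bulk RNA, fewer cells of a type and less RNA per cell cannot be told apart.

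All 7 neuronal marker genes were detected, with a summed level of 1407 to 1522 FPKM in saline and 1273 to 1720 FPKM in soman libraries. FPKM summed to between 296322 and 342231 per library and 24769 to 29662 genes were above 0; read depth is unknown. A check took genes at a mean of 5 FPKM or more whose other 2 replicates in the group were over 2-fold apart. It gave the share of these genes at which a library lay near the middle of that gap (0.3 to 0.7 of the way). In 7 libraries, taken from a fixed list and not by a cut-off on this share, it was 33.3 to 70.6% of 31 to 391 genes. In the other 32 it was 0 to 41.5%, with a median of 15.2%, so the ranges overlap. The 7 include replicate 3 of saline, of every day 1 dose and of 1/10 and 1/5 LD50 at day 14. Replicate 2 of 1/10 LD50 at day 7 is the other. Replicate 3 of 1/10 LD50 at day 3, at 41.5%, is not among the 7, and the rule behind the list is not given here. Mitochondrial transcripts took 21.7% and 25.9% of the FPKM sum at 1/10 LD50 on day 7 (replicates 2 and 3), compared with 6.60 to 14.3% in the other 37 libraries. Summed cerebellar neuron markers were at 46.4 to 50.9 FPKM in 3 libraries and at 148.6 to 394.8 FPKM in the other 36; the 3 are the second replicates of 1/10 and of 1/5 LD50 at day 3 and the first of 1/2 LD50 at day 7.

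Sites of activity-regulated transcription factors were looked for in the promoters of the members. RefSeq promoters (GRCm38.p6) were at hand for 5 of the 6 genes, Dusp4 being the exception, and the 250 bases before the start site were searched on both strands. The cyclic AMP response element TGACGTCA, the site of CREB, lies in 1.55% of 32851 promoters and was present in Dusp1 and Dusp8. The CArG box, the site of serum response factor, lies in 1.47% and was present, in 2 adjoining copies, in Dusp5. The half-element TGACG, which overlaps the full element, lies in 17.8% and was found in Dusp1, Dusp5 and Dusp8. The AP-1 site TGANTCA lies in 6.75% and was found in none of the 5. The stretches that hold the full elements are shown 5′ to 3′ on the strand of the gene, with those elements in capitals: for Dusp1 chr17:26508594-26508675 (minus strand, 203 to 122 bases upstream), for Dusp5 chr19:53529003-53529096 (plus strand, 142 to 49 bases upstream) and for Dusp8 chr7:142095326-142095451 (minus strand, 167 to 42 bases upstream).
Dusp1: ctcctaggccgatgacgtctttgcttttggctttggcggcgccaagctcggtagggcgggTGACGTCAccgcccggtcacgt
Dusp5: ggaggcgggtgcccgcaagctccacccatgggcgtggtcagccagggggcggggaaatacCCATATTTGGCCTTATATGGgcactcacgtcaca
Dusp8: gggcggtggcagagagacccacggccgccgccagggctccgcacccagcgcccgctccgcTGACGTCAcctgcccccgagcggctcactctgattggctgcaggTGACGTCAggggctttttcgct
A match of letters is a description of the sequence and was not set against binding data. Dusp1 holds 1 copy of TGACGTCA in the searched bases and Dusp8 holds 2. Whether these elements bear on the levels of the genes was not tested.

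Dusp1, a nuclear phosphatase of all 3 kinase groups and an immediate early gene, was low for 3 days after soman at every dose and at or above saline by day 14. The saline libraries were at 14.9, 13.1 and 12.4 FPKM. At day 1 the libraries were at 5.83, 7.13 and 6.38 FPKM at 1/10 LD50, 9.90, 10.5 and 9.27 FPKM at 1/5 LD50 and 9.18, 7.27 and 8.47 FPKM at 1/2 LD50. All 9 day 1 libraries were under the lowest saline library, and those at 1/10 LD50 were the lowest, with none above 7.13 FPKM. The day 3 libraries read 6.74, 8.52 and 9.27 FPKM (1/10 LD50), 5.90, 5.73 and 9.55 FPKM (1/5 LD50) and 7.97, 5.91 and 9.95 FPKM (1/2 LD50). All 9 were again under every saline library. The differences were -0.96 ± 0.17, -0.41 ± 0.17 and -0.64 ± 0.17 at day 1 and -0.67 ± 0.17, -0.87 ± 0.17 and -0.72 ± 0.17 at day 3, in the order 1/10, 1/5 and 1/2 LD50. Dusp1 on day 7 measured 7.68, 6.91 and 9.62 FPKM at 1/10 LD50, 12.3, 13.6 and 16.3 FPKM at 1/5 LD50 and 13.4, 16.3 and 14.6 FPKM at 1/2 LD50. At day 7 the doses parted: the libraries at 1/10 LD50 stayed under saline while those at 1/5 and 1/2 LD50 overlapped or exceeded it, with differences of -0.68 ± 0.17, 0.05 ± 0.17 and 0.12 ± 0.17. At day 14 the libraries were at 17.7, 12.6 and 15.2 FPKM at 1/10 LD50, 19.4, 15.02 and 16.1 FPKM at 1/5 LD50 and 14.6, 20.1 and 13.9 FPKM at 1/2 LD50. By day 14 no library was under the saline range and 6 of 9 were above it, with differences of 0.15 ± 0.17, 0.30 ± 0.17 and 0.23 ± 0.17. Over the days, Dusp1 averaged 60.9%, 57.3%, 91.2% and 119% of the saline mean.

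**Figure D1:**
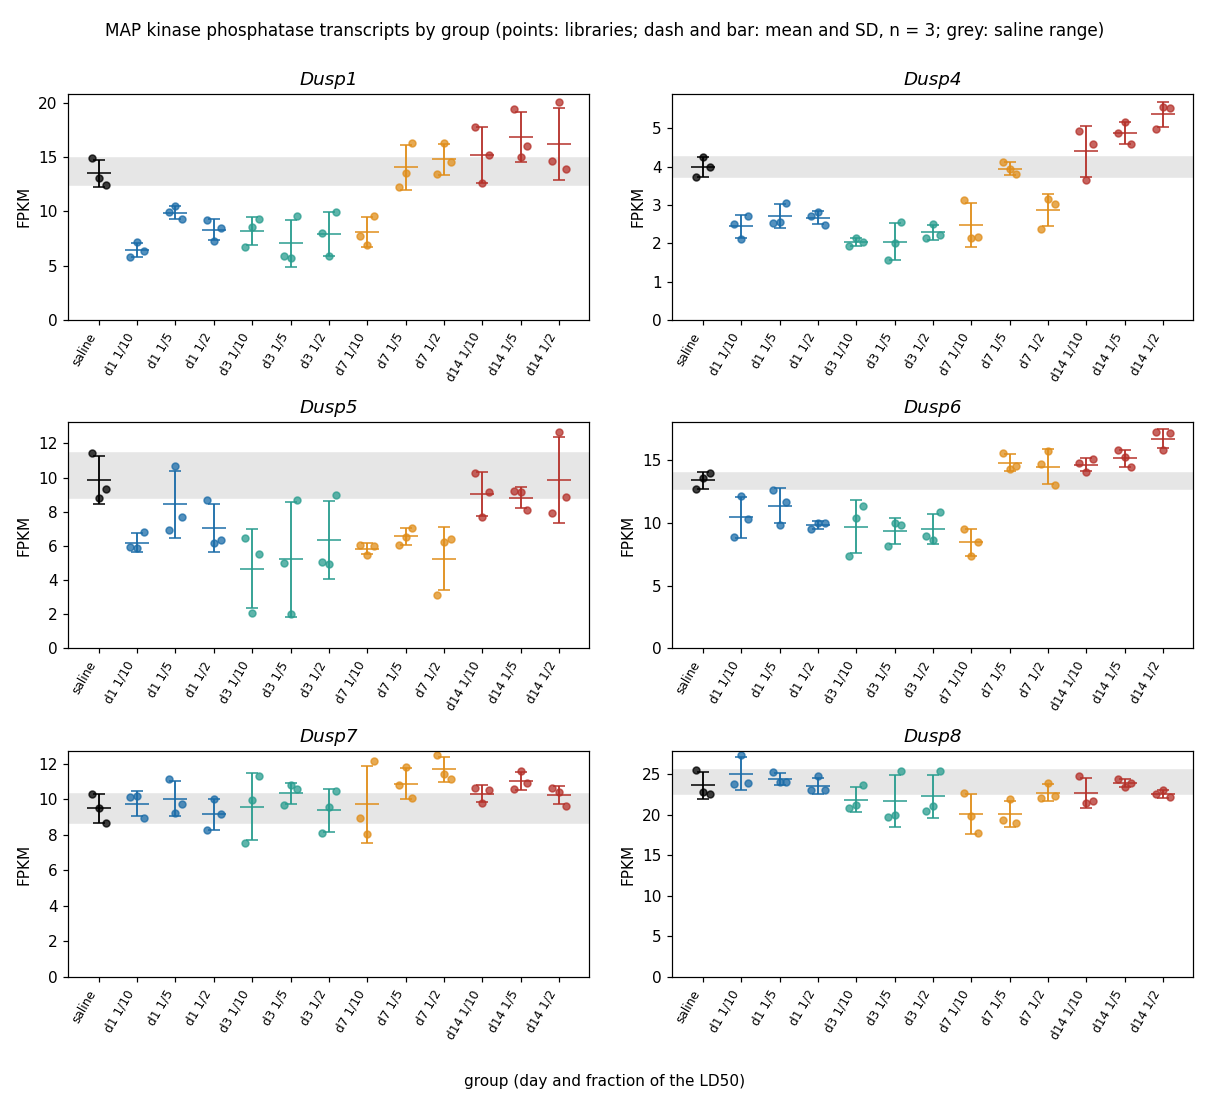
Level of each phosphatase gene in FPKM (vertical axis, starting at 0) in each of the 39 libraries, by group (horizontal axis: saline, then days 1, 3, 7 and 14 with the doses as fractions of LD50); points are libraries and dashes and bars are group means and SD (n = 3), and the grey band is the saline range. Dusp1, Dusp4 and Dusp6 are low at days 1 and 3 and in the 1/10 LD50 group of day 7, while Dusp7 and Dusp8 change less.

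Dusp4, a nuclear phosphatase of ERK and JNK, was the least abundant of the 6 and had a similar course. The saline libraries were at 3.74, 4.25 and 3.999 FPKM. The day 1 libraries read 2.51, 2.11 and 2.71 FPKM (1/10 LD50), 2.52, 2.56 and 3.06 FPKM (1/5 LD50) and 2.72, 2.82 and 2.48 FPKM (1/2 LD50). Dusp4 on day 3 measured 1.92, 2.14 and 2.03 FPKM at 1/10 LD50, 1.57, 2.01 and 2.55 FPKM at 1/5 LD50 and 2.14, 2.51 and 2.22 FPKM at 1/2 LD50. All 18 of these soman libraries were under the lowest saline library. The differences were -0.54 ± 0.11, -0.43 ± 0.11 and -0.44 ± 0.11 at day 1 and -0.72 ± 0.11, -0.73 ± 0.11 and -0.60 ± 0.11 at day 3. At day 7 the libraries were at 3.14, 2.13 and 2.16 FPKM at 1/10 LD50, 4.12, 3.94 and 3.80 FPKM at 1/5 LD50 and 2.39, 3.17 and 3.03 FPKM at 1/2 LD50. At day 7 the libraries at 1/5 LD50 overlapped saline (-0.01 ± 0.11) and those at 1/10 and 1/2 LD50 were under it (-0.53 ± 0.11 and -0.38 ± 0.11). The day 14 libraries read 4.93, 3.66 and 4.60 FPKM (1/10 LD50), 4.87, 5.16 and 4.60 FPKM (1/5 LD50) and 4.99, 5.57 and 5.54 FPKM (1/2 LD50). At day 14, 8 of 9 libraries were above every saline library, and the mean was 122% of saline. Since the level is low, the added 1 FPKM reduces these differences: with 0.1 added in its place the day 3 difference at 1/10 LD50 was -0.94.

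Dusp6, the cytoplasmic ERK phosphatase and a standard readout of ERK signalling, followed Dusp1 with a smaller range. The saline libraries were at 12.7, 13.6 and 13.96 FPKM. Dusp6 on day 1 measured 8.91, 12.2 and 10.3 FPKM at 1/10 LD50, 12.6, 9.84 and 11.7 FPKM at 1/5 LD50 and 9.49, 10.004 and 10.04 FPKM at 1/2 LD50. At day 3 the libraries were at 7.38, 10.4 and 11.4 FPKM at 1/10 LD50, 8.14, 10.02 and 9.87 FPKM at 1/5 LD50 and 8.99, 8.67 and 10.9 FPKM at 1/2 LD50. All 9 libraries of each day were under the saline range, although the highest at day 1 was only just so (12.6 against 12.7 FPKM). The differences ran from -0.22 ± 0.11 to -0.41 ± 0.11 at day 1 and from -0.45 ± 0.11 to -0.48 ± 0.11 at day 3. The day 7 libraries read 9.51, 7.40 and 8.46 FPKM (1/10 LD50), 15.6, 14.3 and 14.6 FPKM (1/5 LD50) and 14.7, 15.8 and 13.04 FPKM (1/2 LD50). At day 7 the 3 libraries at 1/10 LD50 were all under saline (-0.61 ± 0.11), and 5 of the 6 at the higher doses were above it (0.13 ± 0.11 and 0.10 ± 0.11). Dusp6 on day 14 measured 14.8, 14.1 and 15.1 FPKM at 1/10 LD50, 15.8, 15.2 and 14.5 FPKM at 1/5 LD50 and 17.2, 15.8 and 17.2 FPKM at 1/2 LD50. All 9 day 14 libraries exceeded every saline library, with differences of 0.12 ± 0.11, 0.17 ± 0.11 and 0.30 ± 0.11.

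Dusp5, the nuclear phosphatase specific for ERK, was low at days 1, 3 and 7 and close to saline at day 14, and its differences had the largest SE of the 6 genes. The saline libraries were at 11.5, 8.78 and 9.31 FPKM. At day 1 the libraries were at 5.92, 5.87 and 6.82 FPKM at 1/10 LD50, 6.96, 10.7 and 7.69 FPKM at 1/5 LD50 and 8.68, 6.15 and 6.32 FPKM at 1/2 LD50. The day 3 libraries read 6.44, 2.05 and 5.51 FPKM (1/10 LD50), 4.999, 1.98 and 8.70 FPKM (1/5 LD50) and 5.05, 4.95 and 8.97 FPKM (1/2 LD50). At days 1 and 3, 8 of 9 libraries each were under the saline range, and the values at day 3 were spread from 1.98 to 8.97 FPKM. Dusp5 on day 7 measured 6.04, 5.47 and 6.01 FPKM at 1/10 LD50, 6.06, 6.53 and 7.07 FPKM at 1/5 LD50 and 3.15, 6.24 and 6.39 FPKM at 1/2 LD50. All 9 day 7 libraries were under saline, also at 1/5 and 1/2 LD50 (-0.52 ± 0.30 and -0.83 ± 0.30), where Dusp1 and Dusp6 were not. At day 14 the libraries were at 10.3, 7.69 and 9.14 FPKM at 1/10 LD50, 9.21, 9.15 and 8.11 FPKM at 1/5 LD50 and 7.93, 12.7 and 8.89 FPKM at 1/2 LD50. The day 14 differences were -0.11 ± 0.30, -0.14 ± 0.30 and -0.02 ± 0.30. An antisense gene shares 547 exonic bases with Dusp5, and the strand setting of the counting is not given, so reads of the pair cannot be told apart.

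The 3 lowest Dusp5 values came from the 3 libraries that were lowest in cerebellar neuron markers. Dusp5 was at 1.98 to 3.15 FPKM in them and at 4.95 to 12.7 FPKM in the other 36, and Pearson's r between Dusp5 and the summed cerebellar markers was 0.78 over 39 libraries and 0.34 over 36, as a description over libraries that share groups. None of the 5 cerebellar markers was at 0 in all libraries of a day. Without these 3 libraries the Dusp5 differences changed from -1.03 to -0.63 (1/10 LD50, day 3), from -0.95 to -0.50 (1/5 LD50, day 3) and from -0.83 to -0.56 (1/2 LD50, day 7), in an alternative added after the data were seen. The part of the cerebellar share in the Dusp5 result was not tested. At the same day 3 doses the Dusp1 differences changed from -0.67 to -0.70 and from -0.87 to -0.76 without these libraries. Those of Dusp4 changed from -0.72 to -0.75 and from -0.73 to -0.72, and those of Dusp6 from -0.45 to -0.50 and from -0.48 to -0.53. At 1/2 LD50 on day 7 the kept replicates 2 and 3 were also low in cerebellar markers, at 189 and 178 FPKM. The saline libraries were at 286 to 337 FPKM, and all 5 markers were wholly under saline in that group.

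The differences of Dusp7 and Dusp8 from saline were small at every dose and day. Dusp7, the cytoplasmic ERK phosphatase closest to Dusp6, was at 10.3, 9.53 and 8.68 FPKM in saline and 7.53 to 12.5 FPKM over all libraries. Its differences ran from -0.05 ± 0.11 to 0.27 ± 0.11, the highest at 1/2 LD50 on day 7. Above every saline library were 6 of 9 libraries at day 7 and 7 of 9 at day 14. Dusp8, the JNK and p38 phosphatase and on the FPKM scale the most abundant of the 6, was at 25.5, 22.8 and 22.6 FPKM in saline and 17.8 to 27.4 FPKM over all libraries. Its differences ran from -0.23 ± 0.09 (1/10 and 1/5 LD50, day 7) to 0.08 ± 0.09 (1/10 LD50, day 1). Under every saline library were 6 of 9 libraries at day 3, 7 of 9 at day 7 and 4 of 9 at day 14.

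**Figure D2:**
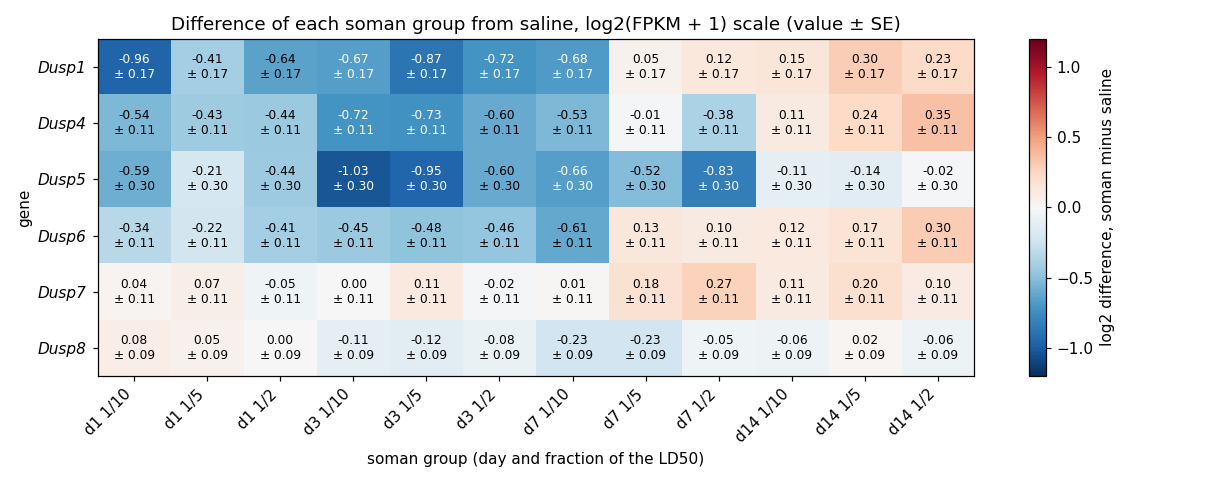
Difference from saline in log2(FPKM + 1) ± SE for each phosphatase gene (rows) in each soman group (columns), coloured from blue (lower) to red (higher). The values of Dusp1, Dusp4, Dusp5 and Dusp6 are below 0 in all 6 groups of days 1 and 3, down to -1.03 for Dusp5, and those of Dusp7 and Dusp8 stay between -0.23 and 0.27.

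Ranking the 13 groups by mean level separates them at the same place for 2 of the genes. For Dusp1 the lower 7 groups were the 6 groups of days 1 and 3 and 1/10 LD50 at day 7; no library in them exceeded 10.5 FPKM, and no library of the other 6 groups was under 12.3. For Dusp6 the same 7 groups were lowest, with no library above 12.6 and none of the others under 12.7. For Dusp4 1/2 LD50 at day 7 joined them, with no library above 3.17 and none of the others under 3.66. The ratio of highest to lowest group mean was 2.61 for Dusp1, 2.65 for Dusp4, 2.11 for Dusp5, 1.98 for Dusp6, 1.28 for Dusp7 and 1.25 for Dusp8. Of the 12 pairs of neighbouring groups in each order, libraries did not overlap in 2 for Dusp1, 1 for Dusp4, 2 for Dusp6 and none for Dusp5, Dusp7 or Dusp8, so that most neighbours could not be told apart.

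At day 1, 2 of the 6 genes were called lower than saline by limma at an adjusted p under 0.05 at 1/10 LD50 (Dusp1 and Dusp4), and none at 1/5 or 1/2 LD50. Of all tested genes, 0.279%, 0.0136% and 0.0884% were called lower and 0.068%, 0% and 0.0272% higher at 1/10, 1/5 and 1/2 LD50; the 41, 2 and 13 lower calls behind these shares were 9, 0 and 1 without the 7 libraries that lie between the others. The median difference of the 6 genes was -0.44, -0.22 and -0.42, beside -0.02, -0.03 and -0.01 over all tested genes. Without these 7 libraries both member calls were lost at nearly the same differences (-1.01 for Dusp1 and -0.59 for Dusp4). The Dusp4 call was also lost without saline replicate 2 (-0.50), saline replicate 3 (-0.54) or soman replicate 2 (-0.47).

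At day 3, Dusp1, Dusp4 and Dusp6 were called lower at all 3 doses and Dusp5 at 1/10 and 1/5 LD50, so 4, 4 and 3 of the 6 genes. Of all tested genes 5.36%, 6.12% and 4.65% were called lower and 1.61%, 2.48% and 3.79% higher. The 788, 900 and 684 lower calls were 122, 164 and 102 without the 7 libraries and 141, 173 and 453 with only the groups compared in the fit. The median of the 6 genes was -0.56, -0.60 and -0.53, beside 0.00, 0.01 and 0.04 over all tested genes. Dusp4 kept its call at each dose when any 1 library was left out. Those of Dusp5 were lost without any 1 of the saline replicates, without replicate 2 at 1/10 LD50 (-0.63), or without replicate 1 (-1.004) or 2 (-0.50) at 1/5 LD50. Those of Dusp1 were lost at 1/10 LD50 without saline replicate 1 (-0.60) or soman replicate 1 (-0.55), and at 1/2 LD50 without replicate 2 (-0.54). Those of Dusp6 were lost at 1/10 LD50 without saline replicate 3 (-0.42) or soman replicate 1 (-0.28), at 1/5 LD50 without replicate 1 (-0.40), and at 1/2 LD50 without saline replicate 3 (-0.43) or soman replicate 1 (-0.43) or 2 (-0.40). Without saline replicate 3, 7 of the 11 calls were left. The Dusp5 calls were lost also with no filter on low values, and with only the groups compared in the fit, as was that of Dusp6 at 1/10 LD50. Without the 7 libraries, 4 were left, those of Dusp4 and that of Dusp1 at 1/5 LD50.

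At day 7, Dusp1, Dusp4 and Dusp6 were called lower at 1/10 LD50, no member at 1/5 LD50 and Dusp4 at 1/2 LD50. Of all tested genes 15.3%, 8.87% and 6.68% were called lower and 4.23%, 6.49% and 1.71% higher. The 2244 lower calls at 1/10 LD50 were 2 with only the groups compared in the fit, 3 without the 2 libraries of high mitochondrial share and 58 without the 7 libraries, and leaving out 1 library of the dose gave 4313 (replicate 1), 1370 (replicate 2) or 479 (replicate 3). Leaving out saline replicate 3 gave 1168. Those at 1/5 LD50 (1304) were 521 without the 7, and those at 1/2 LD50 (982) were 179 without the 7, 446 without saline replicate 3 and 255 without soman replicate 1. The median of the 6 genes was -0.57, 0.02 and 0.03, beside -0.09, 0.03 and 0.00 over all tested genes. Replicates 2 and 3 at 1/10 LD50 are the libraries of high mitochondrial share. Without them 1 library was left, with differences of -0.73 for Dusp1, -0.27 for Dusp4 and -0.45 for Dusp6, and the 3 calls were lost, as they were without the 7 libraries (-0.64, -0.46 and -0.50) and with only the groups compared in the fit. The Dusp4 call at 1/2 LD50 was lost without the 7, with only the groups compared and with no filter on low values. Leaving out saline replicate 2 (-0.34), saline replicate 3 (-0.38) or soman replicate 1 (-0.28), one of the libraries low in cerebellar markers, also ended that call. Dusp8, not called at day 7, was called lower at 1/5 LD50 with median-ratio scaling (-0.25) and at 1/10 LD50 without soman replicate 1 (-0.31).

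At day 14 no member was called in either direction. Of all tested genes 0.388%, 0.102% and 0.333% were called lower and 0.0476%, 0.0612% and 0.0816% higher, and no gene was called in either direction at any dose of day 14 without the 7 libraries. The median of the 6 genes was 0.11, 0.18 and 0.17, beside -0.04, 0.01 and -0.01 over all tested genes.

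Comparisons between soman groups of different days do not use the saline libraries. Between days 3 and 7 at 1/5 and 1/2 LD50 (6 libraries a day), Dusp1 went from 7.50 ± 1.93 to 14.4 ± 1.64 FPKM, and all 6 later libraries were above all earlier ones (difference 0.88 ± 0.12). Dusp6 went from 9.43 ± 1.01 to 14.7 ± 0.98 FPKM, again without overlap (0.59 ± 0.08). Dusp4 went from 2.17 ± 0.36 to 3.41 ± 0.66 FPKM, with 5 of 6 later libraries above all earlier ones (0.47 ± 0.08). The differences of Dusp5 (0.10 ± 0.21), Dusp7 (0.18 ± 0.08) and Dusp8 (-0.04 ± 0.06) were not called. Of all tested genes 0.667% were called higher and 0.286% lower at day 7, and the median was 0.33 over the 6 genes and -0.02 over all. The 1/10 LD50 groups are not in this comparison. There the day 3 and day 7 means were 8.18 and 8.07 FPKM for Dusp1 and 9.72 and 8.46 FPKM for Dusp6. For Dusp4 they were 2.03 and 2.47 FPKM. The rise of Dusp1 and Dusp6 therefore holds for the higher doses only.

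From day 1 to day 14, over the 3 doses (9 libraries a day), Dusp1 went from 8.21 ± 1.62 to 16.1 ± 2.51 FPKM (0.90 ± 0.10), Dusp4 from 2.61 ± 0.26 to 4.88 ± 0.58 FPKM (0.70 ± 0.06) and Dusp6 from 10.6 ± 1.29 to 15.5 ± 1.1 FPKM (0.52 ± 0.07). For each of these 3 genes all 9 later libraries were above all 9 earlier ones. How usual such a separation is among all tested genes was not counted. Dusp5 (0.32 ± 0.17), Dusp7 (0.12 ± 0.07) and Dusp8 (-0.08 ± 0.05) were not called. Of all tested genes 7.27% were called higher and 7.67% lower at day 14, and the median was 0.42 over the 6 genes and 0.01 over all. In both comparisons the calls of Dusp1, Dusp4 and Dusp6 held without any 1 library and under every other alternative; Dusp5 was called as well for day 14 against day 1 when only these groups were fitted.

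**Figure D3:**
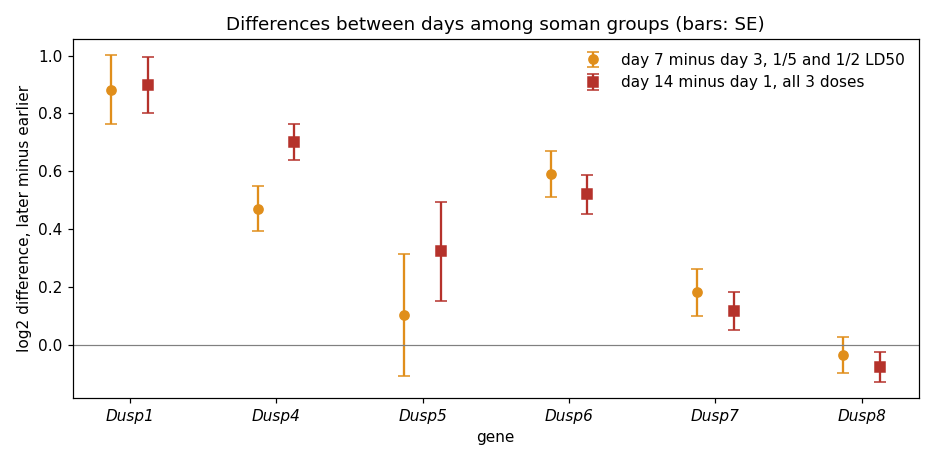
Difference between days among soman groups in log2(FPKM + 1) (vertical axis; bars are SE) for each phosphatase gene; circles are day 7 minus day 3 at 1/5 and 1/2 LD50 and squares are day 14 minus day 1 at all 3 doses. Dusp1, Dusp4 and Dusp6 lie between 0.47 and 0.90, and Dusp8 is just below 0.

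Markers of some cell types were set beside the differences between days. Of the lists given here, only oligodendrocyte progenitor markers had ranges at days 1 and 14 that did not overlap. The summed level of oligodendrocyte progenitor markers was 53.6 to 70.2 FPKM at day 1, 52.5 to 74.5 at day 3, 51.5 to 71.9 at day 7 and 45.5 to 49.9 at day 14, against 53.1 to 62.2 in saline, and r with Dusp4 over the 39 libraries was -0.60. At 1/5 and 1/2 LD50, the doses compared between days 3 and 7, it averaged 63.0 and 53.7 FPKM at day 3 and 60.5 and 65.8 FPKM at day 7. Oligodendrocyte markers were at 2918 to 3074 FPKM in saline, 2078 to 4443 FPKM at day 1 and 2201 to 2717 FPKM at day 14, when all 9 libraries were under saline, and r was -0.48 with Dusp6 and -0.50 with Dusp8. Microglial markers were at 51.7 to 70.9 FPKM in saline, 53.2 to 74.2 FPKM at day 1 and 46.0071 to 60.5 FPKM at day 14, and r was -0.43 with Dusp1 and -0.47 with Dusp4. Haemoglobin and other blood markers were at 795 to 926 FPKM in saline, 387 to 1113 FPKM at day 1 and 161 to 517 FPKM at day 14. All 5 blood markers were wholly under saline in each day 14 group and at 1/10 LD50 on day 7. Neuronal markers ranged from 1273 to 1553 FPKM at day 1 and from 1458 to 1606 FPKM at day 14, and r with Dusp1, Dusp4 and Dusp6 was 0.21, 0.22 and 0.30. No marker of these lists was at 0 in all libraries of a day. Their part in the day differences was not tested.

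Across the 39 libraries Dusp1, Dusp4 and Dusp6 were close to each other, with Pearson's r of 0.86 (Dusp1 and Dusp6), 0.83 (Dusp4 and Dusp6) and 0.82 (Dusp1 and Dusp4). These values include the group differences: on deviations from group means r was 0.36, 0.26 and 0.20. Dusp1 and Dusp5 had r of 0.56 over libraries and 0.54 within groups. Dusp6 and Dusp7, the cytoplasmic pair, had 0.53 and 0.53, and Dusp7 and Dusp8 had 0.11 and 0.27.

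Among 11230 genes, those most like Dusp1 over the 39 libraries were Arc (r = 0.945), a synaptic immediate early gene, Trib1 (0.942), a pseudokinase, and Fos (0.923), a subunit of AP-1. Dusp6 was closest to Arc (0.930), the nuclear receptor gene Nr4a1 (0.926) and the AP-1 gene Junb (0.924). Dusp4 was closest to Rundc1 (0.906), Trib1 (0.890) and the heat shock cochaperone Dnajb1 (0.888). Dusp5 was nearest to Sbk1 (0.892), Inpp5a (0.865), an inositol phosphatase abundant in cerebellar Purkinje cells, and Trmt9b (0.859). For Dusp7 the closest were Mast3 (0.789), Fam81a (0.784) and the adrenergic receptor gene Adrb1 (0.774), and for Dusp8 they were Apc2 (0.864), Ube3b (0.863) and St3gal2 (0.842). All r values of this paragraph include the group differences, and r within groups was not computed for these genes.

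Of the other typical MAP kinase phosphatases, Dusp2 and Dusp9 were the scarcest, and Dusp10 and Dusp16 were at levels near that of Dusp4 on the FPKM scale. Dusp2, a nuclear inducible enzyme, was at 0.280 ± 0.023 FPKM in saline and 0.746 ± 0.204 FPKM at 1/10 LD50 on day 1; in 10 of the 12 soman groups all 3 libraries were above all saline libraries, but at this level the gene did not pass the filter and was not tested. Dusp9 was at 0.139 ± 0.042 FPKM in saline and was not tested either. Dusp10, a phosphatase of JNK and p38, was lower at 1/2 LD50 on day 7 (1.89 ± 0.34 against 2.99 ± 0.19 FPKM, -0.47 ± 0.14, limma adjusted p = 0.0327), a call lost without any 1 saline replicate or soman replicate 1 or 2 (limma adjusted p of 0.0666 to 0.186), without the 7 libraries (0.126) and with no filter (0.0768). Dusp16, another phosphatase of JNK and p38, was at 3.61 ± 0.59 FPKM in saline and averaged 2.83 to 4.32 FPKM in the soman groups, and it was not called in any group. Of 12 tested atypical dual-specificity phosphatases, which lack the MAP kinase docking domain, 4 were called against saline, in a single group each. Of all tested genes, 6.49% were called higher at 1/5 LD50 on day 7 and 3.79% higher at 1/2 LD50 on day 3. At 1/10 LD50 on day 7, 15.3% were called lower, so these counts were near the shares of all genes. Dusp26 was higher at 1/5 LD50 on day 7 (29.6 ± 2.05 against 23.2 ± 0.74 FPKM, 0.34 ± 0.09, limma adjusted p = 0.013), and this was lost without replicate 3 (limma adjusted p = 0.0900), without the 7 libraries (0.0578) and with a trend on transcript length taken out of each library (0.0635). Dusp12 was higher at 1/2 LD50 on day 3 (0.37 ± 0.11, limma adjusted p = 0.031; lost without any 1 of its 6 libraries or the 7), and Dusp3 and Dusp14 were lower at 1/10 LD50 on day 7. For Dusp14 that difference was -0.39 ± 0.13 (limma adjusted p = 0.0356, 0.488 without the 2 libraries of high mitochondrial share and 0.339 without the 7).

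The rest of the pathway was counted over lists of 116 genes, of which 103 were tested. The shares of all tested genes are those given above for the same groups. At day 1, 5, 1 and 2 of them were lower and none higher. At day 3, 21, 21 and 16 were lower, where 5.36%, 6.12% and 4.65% of all tested genes were, and 0, 0 and 1 higher. On day 7, 26, 8 and 10 were lower, beside 15.3%, 8.87% and 6.68% of all, so that the counts at 1/5 and 1/2 LD50 were near the share of all genes. There 1, 11 and 3 were higher, beside 4.23%, 6.49% and 1.71%, and on day 14 none was lower and 4, 2 and 2 were higher. Single libraries moved these counts by over 1.5 times. The 8 lower calls of day 1 became 3 without saline replicate 1 or 3, and 5 without saline replicate 2, replicate 1 of the lowest dose, replicate 3 of the middle dose or replicate 1 or 3 of the highest. The 1 higher call of day 3 was lost without any 1 saline replicate or replicate 1 or 2 at 1/2 LD50, and became 2 without replicate 2 at 1/10 LD50 or replicate 3 at 1/5 LD50. The 44 lower calls of day 7 became 28 without saline replicate 3, and the 15 higher ones became 24 without replicate 1 at 1/10 LD50, 9 without saline replicate 2 or replicate 3 at 1/5 LD50, and 8 without saline replicate 3. The 8 higher calls of day 14 became 4 without saline replicate 1, 5 without saline replicate 2, 2 without saline replicate 3, and 4 or 5 without replicate 1 or 2 at 1/10 LD50.

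**Figure D4:**
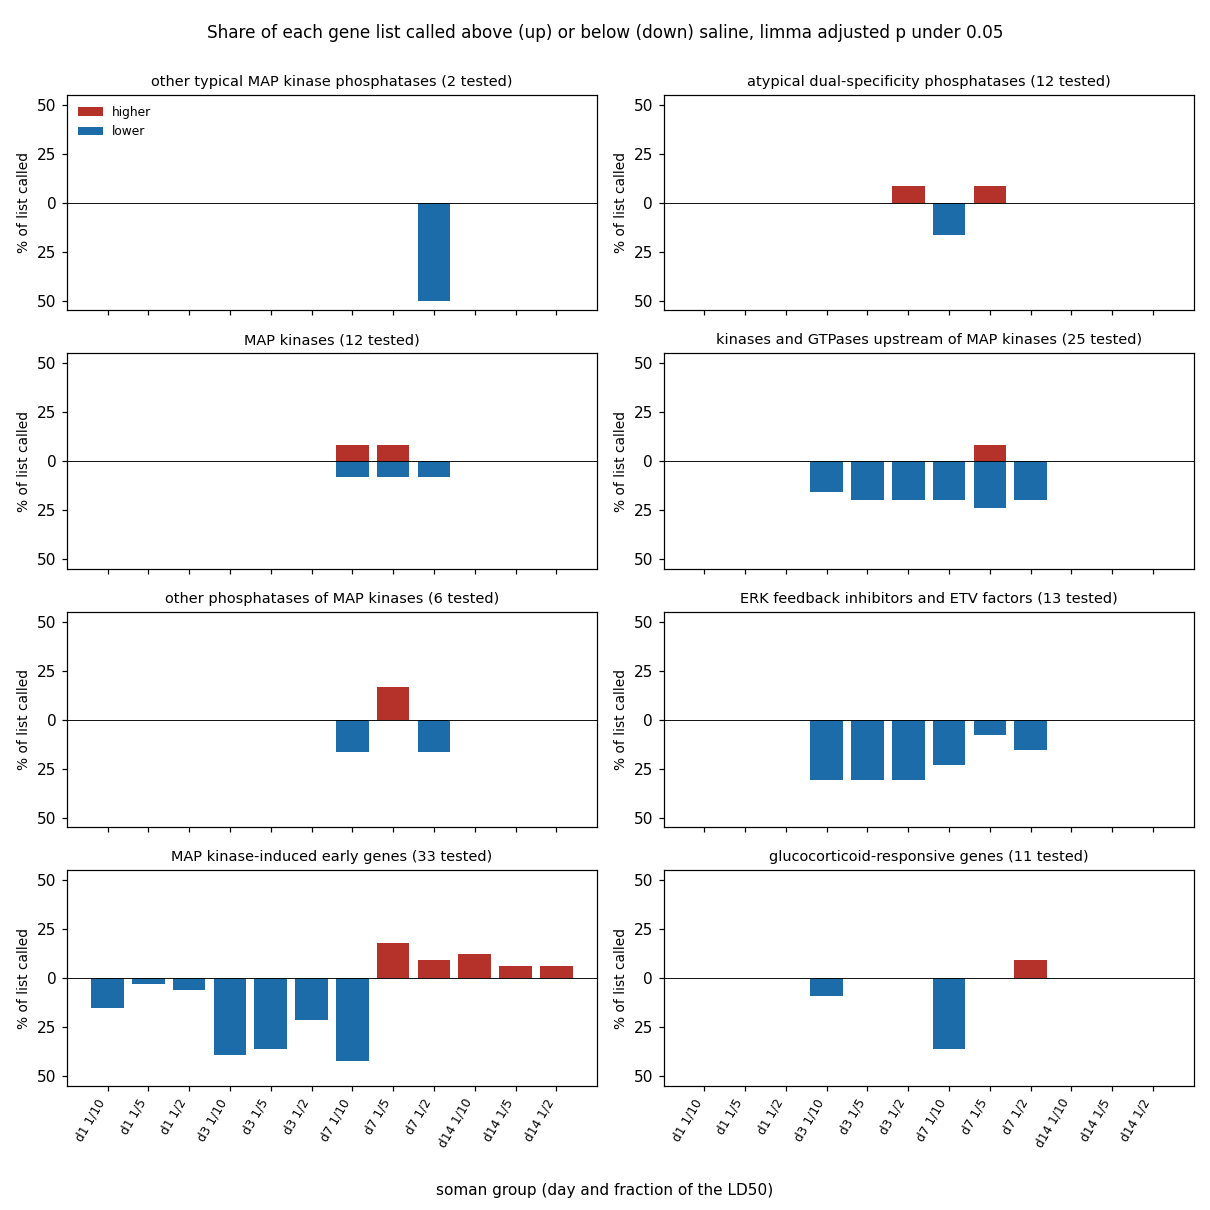
Percent of the tested genes of each list (panels) called higher (red, upward) or lower (blue, downward) than saline by limma at an adjusted p under 0.05, by soman group (horizontal axis). Lower calls of early genes are 13 of 33 at 1/10 LD50 on day 3 and 14 of 33 at 1/10 LD50 on day 7, and higher calls appear from 1/5 LD50 on day 7 on.

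Of 12 tested MAP kinase genes, none was called at days 1, 3 or 14. Of all tested genes at day 3, 5.36%, 6.12% and 4.65% were called lower and 1.61%, 2.48% and 3.79% higher. At days 1 and 14 at most 0.388% were called in either direction, so a count of 0 among 12 is near these shares. On day 7 Mapk3 (ERK1) was higher at 1/10 LD50 (88.0 ± 6.80 against 68.1 ± 2.29 FPKM, 0.36 ± 0.06, limma adjusted p = 0.00075), and this call was lost without the 2 libraries of high mitochondrial share (limma adjusted p = 0.248), without the 7 (0.0667) and with only the groups compared (0.207). Mapk11, a p38 kinase, was higher at 1/5 LD50 (15.1 ± 1.12 against 10.8 ± 0.33 FPKM, 0.45 ± 0.09, limma adjusted p = 0.00059), which no alternative changed. Mapk14, Mapk9 and Mapk6 were called lower at 1/10, 1/5 and 1/2 LD50 in turn. These day 7 counts were near the shares of all tested genes, which were 15.3%, 8.87% and 6.68% lower and 4.23%, 6.49% and 1.71% higher. Mapk4 was not called against saline. Among 6 other tested phosphatases of MAP kinases, Ptpn5 (STEP, a neuronal tyrosine phosphatase of ERK) was higher at 1/5 LD50 on day 7 (53.0 ± 1.26 against 42.0 ± 1.91 FPKM, limma adjusted p = 0.0296), a call lost without saline replicate 2 or 3 or any 1 soman replicate (limma adjusted p of 0.0562 to 0.110), without the 7 libraries (0.166), with no filter (0.0711), with median-ratio scaling (0.0502) and with the length trend removed (0.0839). Ptprr was lower at 1/2 LD50 on day 7 (6.93 ± 1.83 against 12.2 ± 0.99 FPKM, limma adjusted p = 0.024), which was lost without saline replicate 1 or 3 or without soman replicate 1 (limma adjusted p of 0.0693 to 0.244), without the 7 (0.154), with no filter (0.0631) or with only the groups compared (0.0502). Ppp2cb was not called against saline.

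Of 25 kinases, GTPases and regulators upstream of the MAP kinases, 4, 5 and 5 were lower at day 3, where 5.36%, 6.12% and 4.65% of all tested genes were. At day 7, 5, 6 and 5 were lower, beside 15.3%, 8.87% and 6.68% of all, the first of these near the share of all genes. At 1/5 LD50 on day 7, 2 (Hras and Map2k2) were higher, near the share of 6.49% of all tested genes. Ksr2, a brain scaffold that holds RAF, MEK and ERK together, was at 4.79 ± 0.16 FPKM in saline and at 2.66, 2.90 and 2.83 FPKM on average at day 3 (-0.67 ± 0.11, -0.58 ± 0.11 and -0.60 ± 0.11), the call at 1/5 LD50 being lost with only the groups compared (limma adjusted p = 0.0554). It reached its lowest mean at 1/5 LD50 on day 7 (1.97 FPKM, -0.97 ± 0.11, limma adjusted p = 1.89e-06). Ksr1, its paralogue, was lower at 1/5 LD50 on day 3 (6.33 ± 0.36 against 8.38 ± 1.12 FPKM, limma adjusted p = 0.0176), which was lost without saline replicate 2 or 3 or without soman replicate 1 or 2 (limma adjusted p of 0.0544 to 0.106), without the 7 (0.0973) or the 3 libraries low in cerebellar markers (0.0592), with only the groups compared (0.0933) and with the length trend removed (0.0798). Nf1, the GTPase-activating protein that turns Ras off, was at 11.9 ± 0.32 FPKM in saline and 9.18, 8.91 and 8.89 FPKM at day 3 (-0.34 ± 0.07, -0.38 ± 0.07 and -0.38 ± 0.07); these calls were lost once a trend on transcript length was taken out of each library (limma adjusted p of 0.273, 0.138 and 0.0865), and that at 1/10 LD50 also without the 7 (0.0536) and with only the groups compared (0.0682).

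Genes of the ERK feedback loop other than the phosphatases were lower in part. Of 13 tested, 4 were lower at each dose of day 3, where 5.36%, 6.12% and 4.65% of all tested genes were, and 3, 1 and 2 at day 7, beside 15.3%, 8.87% and 6.68%, so that the count at 1/5 LD50 on day 7 was near the share of all genes. None was higher in any group. Their median difference at day 3 was -0.23, -0.33 and -0.26. Spred2, a membrane-bound inhibitor of the Ras to RAF step, was at 13.9 ± 0.77 FPKM in saline and 8.39, 7.97 and 8.70 FPKM at day 3 (-0.67 ± 0.12, -0.74 ± 0.12 and -0.64 ± 0.12, limma adjusted p = 0.00114, 0.000343 and 0.00177). It was still at 9.46 and 8.54 FPKM at 1/5 and 1/2 LD50 on day 7 (-0.51 ± 0.12 and -0.64 ± 0.12, limma adjusted p = 0.00479 and 0.00118), where Dusp1 and Dusp6 overlapped or exceeded saline, and these 5 calls held under every alternative. Etv5, an ERK-induced transcription factor, was at 21.1 ± 0.95 FPKM in saline and 14.2 and 13.7 FPKM at 1/5 and 1/2 LD50 on day 3 (-0.54 ± 0.11 and -0.60 ± 0.11, limma adjusted p = 0.00214 and 0.00119). Spred1 was at 25.8 ± 2.04 FPKM in saline and 19.5, 20.1 and 20.2 FPKM at day 3 (-0.39 ± 0.08, -0.35 ± 0.08 and -0.34 ± 0.08); without saline replicate 3 the last 2 of these calls were lost (limma adjusted p = 0.0627 and 0.0703), as was the last without replicate 1 or 3 at 1/2 LD50 (0.0597 and 0.0674). All 3 of these Spred1 calls were lost with only the groups compared in the fit (limma adjusted p = 0.0597, 0.0648 and 0.0889). They were lost also when the 7 libraries were left out (limma adjusted p = 0.0989, 0.136 and 0.145), and the last 2 with the length trend removed (0.0724 and 0.0541).

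Early genes that MAP kinases induce formed the largest group of calls in these lists. Of 33 tested, 5, 1 and 2 were lower at day 1 and 13, 12 and 7 at day 3. Of all tested genes, 0.279%, 0.0136% and 0.0884% were called lower at day 1 and 5.36%, 6.12% and 4.65% at day 3. At 1/10 LD50 on day 7, 14 of the 33 were lower, beside 15.3% of all tested genes. The median difference of the 33 was -0.26, -0.26 and -0.27 at day 3, beside 0.00, 0.01 and 0.04 over all tested genes. On day 7 none was lower at the higher doses, where 6 and 3 were higher, and on day 14 none was lower and 4, 2 and 2 were higher. Of all tested genes, 8.87% and 6.68% were lower and 6.49% and 1.71% higher at these day 7 doses. On day 14, 0.388%, 0.102% and 0.333% of all were lower and 0.0476%, 0.0612% and 0.0816% higher. At 1/10 LD50 on day 7, 2 of the 3 libraries are those of high mitochondrial share; without them the lower calls of this group over all pathway lists went from 26 to 0, and those over all tested genes from 2244 to 3. This list was written with earlier results of these libraries known, so its direction is not independent evidence. Arc, whose protein takes part in synaptic endocytosis, was at 39.9 ± 2.85 FPKM in saline and 12.6 ± 2.15 FPKM at 1/10 LD50 on day 1 (-1.60 ± 0.22, limma adjusted p = 0.000114), and its day 3 differences were -1.51 ± 0.22, -1.66 ± 0.22 and -1.15 ± 0.22 (limma adjusted p = 0.000187, 4.86e-05 and 0.00209). At 1/2 LD50 on day 1 the Arc difference was -1.16 ± 0.22 (limma adjusted p = 0.0212), a call lost without the 7 libraries (0.604) or any 1 of its 6 libraries (0.0870 to 0.126). Nr4a3, an orphan nuclear receptor, was at 4.96 ± 0.31 FPKM in saline and 2.63, 2.86 and 3.24 FPKM at day 3 (-0.72 ± 0.10, -0.63 ± 0.10 and -0.50 ± 0.10, limma adjusted p = 0.000157, 0.000206 and 0.0021), the call at 1/2 LD50 being lost with only the groups compared (0.0513). Fosb, an AP-1 subunit, was higher at later times, at 2.23 ± 0.28 FPKM at 1/5 LD50 on day 7 against 1.17 ± 0.14 in saline (0.58 ± 0.12, limma adjusted p = 0.00175), and at 2.52, 2.26 and 2.61 FPKM on day 14 (limma adjusted p = 0.0043, 0.0386 and 0.0054). The day 14 calls of Fosb were lost without the 7 libraries (limma adjusted p of 0.0826 to 0.969), that at 1/10 LD50 also without replicate 2 (0.0518), and that at 1/5 LD50 without any 1 of its 6 libraries.

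Between soman groups, without saline, 19 of the 33 early genes were higher at day 7 than at day 3 at 1/5 and 1/2 LD50. From day 1 to day 14, 25 were higher, and none was lower in either comparison. Of all tested genes, 0.667% and 7.27% were called higher and 0.286% and 7.67% lower, in the same order. The medians of the 33 were 0.42 and 0.42, beside -0.02 and 0.01 over all tested genes. Of the 13 feedback genes, 3 (Spry4, Spred3 and Etv5) were higher at day 7 than at day 3. This count was 1 without any 1 of 7 of the 12 libraries: replicate 1 of all 4 groups, the third at 1/2 LD50 on day 3, and the second at both doses on day 7. From day 1 to day 14, 6 of them were higher and 1 (Etv4) lower. No MAP kinase and no gene of the upstream list was called between days 7 and 3, which is near the shares of all tested genes. From day 1 to day 14, 1 of the 12 MAP kinases was lower (Mapk7) and 2 were higher (Mapk4 and Mapk10), and of the 25 upstream genes 3 were lower (Nras, Map3k7 and Ksr2) and 4 higher (Map2k3, Map3k4, Map3k5 and Ksr1), beside 7.67% lower and 7.27% higher of all tested genes. Ppp2cb, a catalytic subunit of protein phosphatase PP2A, was higher in this comparison.

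Another 11 tested genes known to respond to glucocorticoids were counted because Dusp1 is also induced by these hormones. None was called at day 1, where at most 0.279% of all tested genes were called in either direction. Per1 was lower at 1/10 LD50 on day 3, where 5.36% of all tested genes were. Both counts were near these shares. At 1/10 LD50 on day 7, 4 were lower (Per1, Ddit4, Errfi1 and Sult1a1), where 15.3% of all tested genes were. Ddit4 was called higher at 1/2 LD50 on day 7, where 1.71% of all tested genes were, opposite to its direction at 1/10 LD50. Per1, a clock gene that is also on the early gene list, was at 11.5 ± 1.59 FPKM there against 18.4 ± 1.95 FPKM in saline (-0.64 ± 0.13, limma adjusted p = 0.00173), and Errfi1, an inhibitor of the EGF receptor, at 6.51 ± 0.53 against 7.91 ± 0.18 FPKM (limma adjusted p = 0.00973). Both were lost without the 2 libraries of high mitochondrial share (limma adjusted p = 0.296 and 0.603), without the 7 (0.0993 and 0.144) and with only the groups compared (0.175 and 0.248), Errfi1 also without either of them alone (0.0545 and 0.0620). From day 1 to day 14, 7 of the 11 were higher and none lower (Fkbp5, Tsc22d3, Sgk1, Per1, Zbtb16, Errfi1 and Cdkn1a). Of all tested genes 7.27% were called higher and 7.67% lower in that comparison. The part of these hormones in the Dusp1 result was not tested.

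Markers of other cell types stood beside these results as follows. Summed meningeal fibroblast markers were at 28.9 to 33.6 FPKM in saline and 24.4 to 32.2, 19.3 to 26.5, 13.3 to 27.5 and 20.6 to 24.7 FPKM at days 1, 3, 7 and 14, with 4 of 5 markers wholly under saline at every day 3 dose. Striatal neuron markers were at 132.4 to 135.0 FPKM in saline and 140.3 to 198.5 FPKM at day 3, when 3, 5 and 4 of 5 were wholly above saline. Cortical and hippocampal excitatory neuron markers were at 45.1 to 47.3 FPKM in saline, 36.0 to 49.9 at day 1 and 34.1 to 47.1 at day 3. Over the 39 libraries r of the meningeal, striatal and excitatory lists was -0.28, -0.12 and 0.25 with Dusp1 and -0.27, 0.19 and 0.36 with Dusp6. No marker of these lists was at 0 in all libraries of a day, and their part in the results was not tested.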

How the data were processed

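Poly(dT)-purified RNA of mouse brain was made into cDNA (SmartScribe), per the labels' protocols. The submitters' processing notes list HISAT2 and GRCh38, a human build, although the samples are from mice. The authors deposited FPKM in 1 table of 47561 genes by 39 libraries; the program that computed FPKM and the strand setting are not given in the sources used here. Ratios between low values had no common step (at most 1.05% in the commonest bin), so whole reads were not recovered and depth is unknown.

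Groups came from the labels. Genes at 1 FPKM or more in at least 3 libraries (14701) were fitted as log2(FPKM + 1) in 1 model of 13 group means with limma 3.58.1 (lmFit, eBayes with trend) in R 4.3.3, with Benjamini-Hochberg adjustment over all tested genes and a threshold of 0.05. P-values measure the spread between the labelled biological replicates. The code was tested on simulated data. Members and lists were chosen with earlier results of these data known. Named genes are the 6 members, the 4 other typical phosphatases, up to 3 genes of each list with the smallest p in the F-test over the 12 comparisons with saline, and for each member the 3 genes of highest Pearson's r with a mean of at least 2 FPKM; genes listed by name with a count were chosen after their values were seen. The alternatives were an added value of 0.1, no filter, median-ratio scaling, the replicate number as a block, only the groups compared, each library left out, the 7 and the 2 doubted libraries left out, a lowess trend on transcript length (GENCODE) removed and, added later, the 3 libraries with cerebellar markers under 100 FPKM left out. Promoters were read from RefSeq with Python 3.11.15.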

Additional observations from a re-analysis of the deposited data

Results flagged for a closer look

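Differences between days within the same doses were called for 3 of the 6 phosphatase genes. Of all tested genes, 0.667% were called higher and 0.286% lower at day 7 than at day 3. At day 14 against day 1, 7.27% were called higher and 7.67% lower. Dusp1 was higher at day 7 than at day 3 at 1/5 and 1/2 LD50 by 0.882 and at day 14 than at day 1 over all doses by 0.897, on the log2(FPKM + 1) scale. Dusp4 was higher by 0.471 and 0.701 and Dusp6 by 0.59 and 0.52 in the same comparisons. Neither comparison uses saline. That of days 7 and 3 leaves out 1/10 LD50, where the mean of Dusp1 was 8.07 FPKM at day 7 against 8.18 at day 3. The mean of Dusp6 there was 8.46 against 9.72 FPKM, and that of Dusp4 was 2.47 against 2.03 FPKM. Since the genes were chosen with results of these libraries known, the values are a description and no explanation was tested.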

How the results depend on the processing

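Counts of calls against saline moved as follows, and the cause was not tested. For the 6 phosphatase genes, lower calls at day 1 (2) were 0 without the 7 libraries that lie between the others. Those at day 3 (11) were 4 without these 7, and those at day 7 (4) were 1 with only the groups compared, where all 4 were lost and Dusp5 at 1/5 LD50 was called instead. They were 0 without the 7 and 1 without the 2 libraries of high mitochondrial share. For the pathway lists, lower calls at day 1 (8) were 5 with no filter, 13 with only the groups compared and 1 without the 7. At day 3 (58) they were 34 and 30 in the last 2 settings. At day 7 (44) they were 14 with only the groups compared, 9 without the 7, 22 without the 2 and 26 with the length trend removed. Higher calls at day 3 (1) were 0 with no filter, 2 with median-ratio scaling, 2 with only the groups compared, 0 without the 7 and 3 without the 3 libraries low in cerebellar markers. At day 7 (15) they were 3 without the 7, and at day 14 (8) they were 5 with no filter, 14 with only the groups compared and 0 without the 7. Feedback genes higher at day 7 than at day 3 (3) were 1 with no filter, 1 with only the groups compared and 1 without the 3, and glucocorticoid-responsive genes in that comparison (1) were 0 with only the groups compared and 2 with the length trend removed. Nf1 at 1/10 LD50 on day 7 changed sign with the length trend removed (0.0102, limma adjusted p = 0.92).

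Leaving out each library in turn gave 1 to 2 member calls at day 1, 7 to 11 at day 3 and 3 to 5 at day 7. Lower pathway calls ran from 3 to 8 at day 1, 42 to 65 at day 3 and 28 to 56 at day 7, and higher ones from 0 to 2 at day 3, 8 to 24 at day 7 and 2 to 8 at day 14. Between days 7 and 3, feedback genes ran from 1 to 3 and glucocorticoid-responsive genes from 1 to 2.

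Replicate numbers did not pair the libraries: deviations from group means had a median r of 0.005 over 234 pairs of the same number. With the number as a block, member calls were 2, 11 and 4 at days 1, 3 and 7 and pathway calls 9, 57 and 41 lower. Median-ratio scaling moved the median difference of all tested genes by at most 0.07. Depth is unknown, and with 3 libraries a group a difference that missed the threshold is not shown to be absent.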
